A study of Felis catus with 36 samples.

Results

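ENSFCAG00000033858 is 1 of 26681 cat genes counted in left ventricle and skeletal muscle, and it was chosen by its counts at 4 months, which were higher in the left ventricle and lower in the skeletal muscle of banded than of sham cats. The values at 4 months are therefore given as a description with no test, and tests are limited to comparisons at 1 month. The fits across all genes that gave most of these tests estimate the spread from the libraries of both times. The study sequenced messenger RNA of cats with aortic banding, in which the aorta is constricted to model heart failure with preserved ejection fraction (HFpEF), and of sham-operated cats. Each tissue has 18 libraries, with 5 of banded animals at 4 months, 5 of sham animals at 4 months, 5 of banded animals at 1 month and 3 of sham animals at 1 month. The labels used here give no age, sex, strain, degree of constriction or batch, and they do not say which libraries come from the same cat, so p-values measure the spread between libraries.

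In HFpEF the ventricle empties normally but is stiff and fills poorly. A narrowed aorta can produce this by making the left ventricle pump against a raised pressure. The load acts on the heart directly, whereas skeletal muscle meets it only through circulation, activity and circulating signals. Muscle weakness and poor exercise tolerance are common in patients with the disease, so the tissues are often studied side by side. What ENSFCAG00000033858 encodes is not stated in the files. A RefSeq table of 39307 cat genes was searched, and 0 of the 26681 identifiers could be matched to a symbol through it, so no gene is given a name, role or sequence here. For the same reason the tissue labels were not checked against marker genes.

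Read counts of ENSFCAG00000033858 ran from 224 to 633 per left ventricle library and from 87 to 228 per skeletal muscle library. The gene counts of a library summed to 14.6 to 22.3 M for the left ventricle and 21.5 to 34.9 M for skeletal muscle. Levels are given as CPM, counts relative to a common library size, with libraries of a tissue scaled by TMM (trimmed mean of M values), which adjusts for differences in RNA composition between libraries. In bulk tissue, a lower level because fewer cells carry the transcript and a lower level because each cell holds less of it cannot be told apart.

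In the left ventricle at 4 months, ENSFCAG00000033858 stood at 21.2, 33.6, 48.3, 37.7 and 22.0 CPM in the banded libraries, against 17.4, 20.9, 18.6, 17.2 and 13.8 CPM in the sham libraries. Banded libraries 2, 3 and 4 were well above every sham library, while banded libraries 1 and 5 lay just above the highest of them. The means were 32.5 ± 11.4 CPM in banded and 17.6 ± 2.55 CPM in sham libraries (SD, n = 5 each), a ratio of 1.85. The log2 fold change from edgeR was 0.89 (SE 0.190). Without banded library 3 it was 0.72, the lowest value with any 1 library left out. The highest was 1.02, when banded library 5 was left out.

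The separation in the left ventricle was narrow and depended on scaling. The lowest banded library, at 21.2 CPM, stood next to the highest sham library, at 20.9 CPM. With counts divided by the library total alone, banded library 5 had 20.8 CPM and sham library 2 had 21.2 CPM, so the groups overlapped. The unscaled read counts overlapped as well, from 314 to 633 in banded and from 246 to 464 in sham libraries. Banded libraries were smaller, with 14.6 to 20.7 M gene counts against 19.5 to 22.3 M in sham libraries. The share of reads assigned to genes was 46.1% to 62.4% in banded and 57.2% to 62.5% in sham libraries. Banded library 3, with the highest level of ENSFCAG00000033858, also had the lowest assigned share, at 46.1%, but banded library 1 combined a share of 48.8% with the lowest level of its group. The part of depth and assigned share in the difference was not tested.

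In skeletal muscle at 4 months the order of the groups was the other way round. ENSFCAG00000033858 stood at 4.51, 4.43, 4.74, 5.12 and 3.53 CPM in the banded libraries, against 7.42, 5.33, 5.56, 7.68 and 6.37 CPM in the sham libraries. The highest banded library was still under the lowest sham library, and banded library 5 was the lowest of all. The means were 4.47 ± 0.587 CPM in banded and 6.47 ± 1.06 CPM in sham libraries (SD, n = 5 each), a ratio of 0.69. The log2 fold change was -0.53 (SE 0.148), from -0.60 to -0.46 with 1 library left out. Here the groups also stayed apart when counts were divided by the library total alone, with a ratio of 0.689 between the group means.

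**Figure D1:**
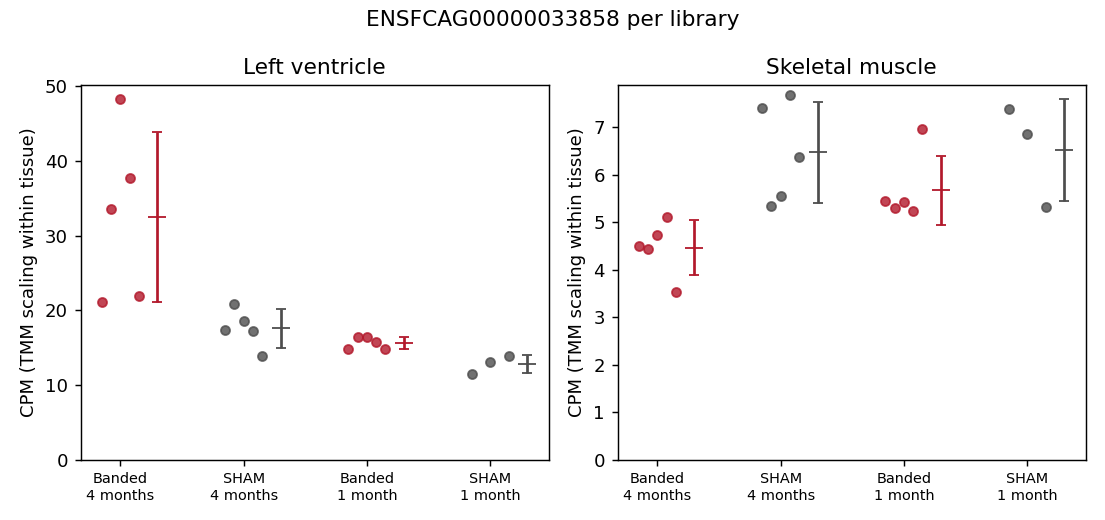
Level of ENSFCAG00000033858 in each library (points), in CPM scaled within the tissue, with the mean and SD of each group (bar). At 4 months the banded libraries sit highest of all groups in left ventricle, from 21.2 to 48.3 CPM, and lowest of all groups in skeletal muscle, from 3.53 to 5.12 CPM.

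The banded libraries of 4 months stood at the edge of each tissue as a whole. In left ventricle all 5 were above the other 13 libraries, of which the highest had 20.9 CPM, and 22 of 13976 genes (0.157%) had this arrangement. In skeletal muscle all 5 were below the other 13 libraries, of which the lowest had 5.23 CPM, and 20 of 13480 genes (0.148%) had it. Banded libraries were above all sham libraries of 4 months for 0.88% of genes in left ventricle and below them for 0.675% in skeletal muscle. Among 12990 genes tested in both tissues, 1 (0.0077%), ENSFCAG00000033858 itself, had both separations, while at 1 month 4 genes (0.0308%) had both and ENSFCAG00000033858 was not among them. The 4-month shares come from the values on which the gene was chosen, and nothing is read from them. The log2 fold change of banding in left ventricle minus that in skeletal muscle was 1.45 (SE 0.241), from 1.216 to 1.573 with 1 library left out.

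The libraries of 1 month were not used to choose the gene and asked whether the same differences were already present. In left ventricle at 1 month, ENSFCAG00000033858 stood at 14.8, 16.5, 16.4, 15.8 and 14.8 CPM in the banded libraries, against 11.5, 13.1 and 13.9 CPM in the sham libraries. All 5 banded libraries lay above all 3 sham libraries, and both groups were tight. Banded libraries averaged 15.6 ± 0.830 CPM (SD, n = 5) and sham libraries 12.8 ± 1.26 CPM (SD, n = 3). Groups separated in this direction for 371 of 13976 genes (2.65%).

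The tests of the left ventricle at 1 month gave different answers. A two-sided exact permutation test of the gene alone gave a difference of 0.29 on the log2 scale with p = 0.0179. This is the smallest p that 3 against 5 libraries allow in that test, and it was 0.0357 after adjustment over the 2 tissues. It rests on the separation of the groups given above, which 371 of 13976 genes (2.65%) had, and is no separate support. In the fit across all genes the log2 fold change was 0.29 (SE 0.222, 95% interval -0.15 to 0.72), and ENSFCAG00000033858 was not called, with an adjusted p of 0.777 from edgeR's quasi-likelihood test with Benjamini-Hochberg adjustment. The SE of that fit pools the spread of the 4 groups, which includes the wide banded group of 4 months. With the 1-month groups alone it was 0.144, and the adjusted p was 0.562 (0.547 to 0.954 over the alternatives). edgeR called 0 of 13976 genes (0%) in this comparison, with 1216 genes (8.7%) at an unadjusted p under 0.05. DESeq2 called 98 of 13959 genes (0.702%) and limma voom 0. Leaving out sham library 2 raised the edgeR count to 571, and leaving out banded library 2 raised it to 62.

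In skeletal muscle at 1 month, ENSFCAG00000033858 stood at 5.44, 5.30, 5.43, 5.23 and 6.96 CPM in the banded libraries, against 7.38, 6.86 and 5.33 CPM in the sham libraries. The groups overlapped, since banded library 5 lay between the sham libraries and sham library 3 lay among the lower banded ones. Banded libraries averaged 5.67 ± 0.723 CPM (SD, n = 5) and sham libraries 6.52 ± 1.06 CPM (SD, n = 3). The log2 fold change was -0.20 (SE 0.169, 95% interval -0.53 to 0.13), with an adjusted p of 0.602 from edgeR. It was -0.33 without sham library 3, -0.11 without sham library 1 and -0.13 without banded library 1 or without banded library 4. The two-sided exact permutation test gave p = 0.321. edgeR called 0 of 13480 genes (0%), with 1898 genes (14.1%) at an unadjusted p under 0.05, while DESeq2 called 29 of 13438 (0.216%) and limma voom 0. Leaving out sham library 3 raised the edgeR count to 2, and leaving out sham library 1, banded library 1 or banded library 4 raised it to 1.

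The difference between the tissues at 1 month was tested in a fit of all 36 libraries. The banding effect in left ventricle exceeded that in skeletal muscle by 0.51 on the log2 scale (SE 0.278, 95% interval -0.03 to 1.05). ENSFCAG00000033858 was not called, with an adjusted p of 0.704 from edgeR (0.389 to 1 over the alternatives). The interval holds 0 and also differences close to 1. Its SE pools the spread of all groups, including the wide banded left ventricle group of the later time. With the 1-month groups alone the difference was 0.48 (SE 0.209). A normal 95% interval from that SE leaves out 0, so whether 0 was held depended on the groups fitted. The gene was again not called, with an adjusted p of 0.63 from edgeR. An opposite effect at 1 month was thus neither shown after adjustment over all genes nor limited to a small size at this number of libraries. edgeR called 0 of 14579 genes (0%), with 1133 genes (7.77%) at an unadjusted p under 0.05, DESeq2 called 13 of 14559 (0.0893%) and limma voom 0. Leaving out left ventricle sham library 2 raised the edgeR count to 276, and leaving out left ventricle banded library 2 raised it to 8.

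**Figure D2:**
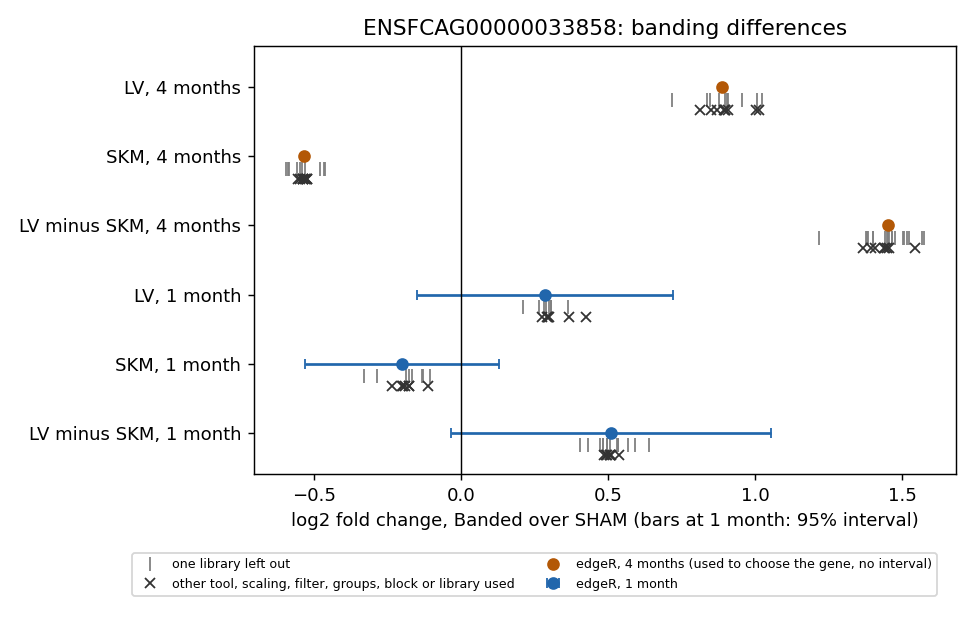
Log2 fold change of banded over sham libraries for ENSFCAG00000033858, in left ventricle (LV), skeletal muscle (SKM) and their difference. The left ventricle values are 0.89 at 4 months and 0.29 at 1 month, the skeletal muscle values -0.53 at 4 months and -0.20 at 1 month, and bars at 1 month give the 95% interval. The values at 4 months chose the gene and have no interval. Grey marks leave out 1 library at a time, and crosses use another tool, scaling, filter, set of groups, block or library.

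Time differences share the 4-month libraries with the choice of the gene and are given without a test. In banded left ventricle the mean of ENSFCAG00000033858 was 32.5 CPM at 4 months and 15.6 CPM at 1 month, a log2 fold change of 1.06 (SE 0.191). All 5 libraries of 4 months lay above all 5 libraries of 1 month. Separations by time were not counted over all genes, so nothing is read from this one. In sham left ventricle the mean was 17.6 CPM at 4 months and 12.8 CPM at 1 month, a log2 fold change of 0.46 (SE 0.223), and 4 of 5 libraries of 4 months lay above all 3 libraries of 1 month. The mean was thus higher at 4 months in both treatments of the left ventricle.

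In banded skeletal muscle the mean was 4.47 CPM at 4 months and 5.67 CPM at 1 month, a log2 fold change of -0.34 (SE 0.148). All 5 libraries of 4 months lay below all 5 libraries of 1 month, or 4 of 5 with scaling over all 36 libraries. How many of all genes separate by time in this way was not counted here either. In sham skeletal muscle the means were nearly equal, with 6.47 CPM at 4 months and 6.52 CPM at 1 month, a log2 fold change of -0.01 (SE 0.169), and its sign changed with tool and scaling. Within left ventricle the groups stood, from low to high, in the order sham 1 month, banded 1 month, sham 4 months and banded 4 months. With library totals only, the middle groups changed places, with 16.6 CPM in sham libraries of 4 months and 17.5 CPM in banded libraries of 1 month. Banded libraries of 1 month and sham libraries of 4 months overlapped there, as did the sham groups of both times. Within skeletal muscle the order was banded 4 months, banded 1 month, sham 4 months and sham 1 month, and the upper 3 groups overlapped one another.

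Library-to-library spread also differed between the groups. The SD was 34.9% of the mean in banded left ventricle at 4 months, 14.5% in sham left ventricle at 4 months, 5.31% in banded left ventricle at 1 month and 9.81% in sham left ventricle at 1 month. In skeletal muscle it ran from 12.7% to 16.4% over the 4 groups.

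The tissues were compared with each other at 1 month, on counts scaled over all 36 libraries. In banded animals ENSFCAG00000033858 averaged 12.4 ± 0.768 CPM in left ventricle and 7.12 ± 0.877 CPM in skeletal muscle (SD, n = 5 each). All 5 left ventricle libraries lay above all 5 skeletal muscle libraries, a separation that was not counted over all genes. The left ventricle was higher by 0.80 on the log2 scale (SE 0.170, 95% interval 0.46 to 1.13), with an adjusted p of 0.000201 from edgeR, in a comparison where 53.3% of 14579 genes were called and 28.3% were called as higher in left ventricle. In sham animals it averaged 9.91 ± 0.982 CPM in left ventricle and 8.11 ± 1.37 CPM in skeletal muscle (SD, n = 3 each), with overlapping groups. The difference was 0.29 on the log2 scale (SE 0.220, 95% interval -0.14 to 0.72) with an adjusted p of 0.297 from edgeR, where 44.6% of genes were called and 23.3% were called as higher in left ventricle. With 1 library left out the sham difference ran from 0.16, without skeletal muscle library 3, to 0.40. A call in banded and none in sham animals does not show that the tissue difference depends on banding, since the test of that difference, given above, did not pass.

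How far the tissues lay apart depended on the scaling. With library totals alone the log2 fold change was 1.52 in banded and 0.99 in sham animals, and the sham difference passed with an adjusted p of 0.000372 from edgeR (0.000372 to 0.647 over the alternatives). That scaling moved the median of all genes by 0.716 in banded and 0.713 in sham animals relative to TMM. Relative to the median of all genes, ENSFCAG00000033858 was 0.70 higher in left ventricle with TMM and 0.71 higher with library totals in banded animals. In sham animals it was 0.18 higher with TMM and 0.16 higher with library totals. The summed share of the 10 genes with the most counts was 13.5% to 20.4% in left ventricle libraries and 25.4% to 36.7% in those of skeletal muscle. Its part in the tissue difference was not tested.

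**Figure D3:**
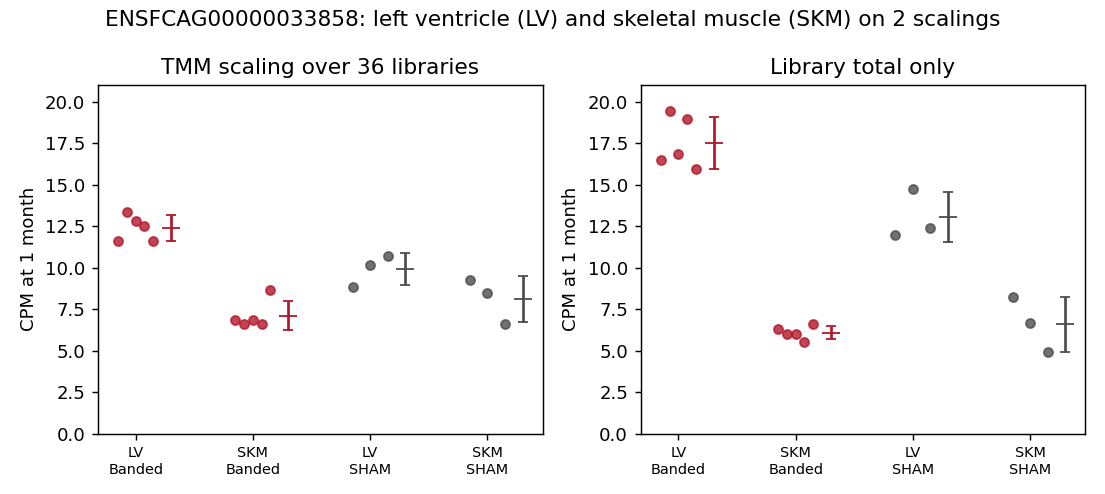
Level of ENSFCAG00000033858 at 1 month in LV (left ventricle) and SKM (skeletal muscle) libraries (points), with the mean and SD of each group (bar), in CPM with TMM scaling over 36 libraries (left) or with the library total only (right). In sham animals the tissue means are 9.91 and 8.11 CPM on the left, where libraries overlap, and 13.04 and 6.59 CPM on the right, where they do not.

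The genes that followed ENSFCAG00000033858 most closely were ranked by Pearson's r across the 18 libraries of a tissue, on log2 CPM. The libraries share their depth and RNA composition, and the named genes were taken as the highest of all, so r is a description with no p. In left ventricle r reached 0.8 or more for 19 of 13975 genes (0.136%) and -0.8 or less for 24 genes (0.172%). In skeletal muscle 0 of 13479 genes reached 0.8, and the highest r was 0.741.

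ENSFCAG00000023884 was the closest gene in left ventricle, with r = 0.918 and Spearman's rho = 0.841 over 18 libraries. It stood at 165.7, 170.4, 208.6, 189.1 and 140.0 CPM in banded libraries of 4 months, against 129.6, 133.3, 107.4, 119.2 and 109.8 CPM in sham libraries of 4 months. Banded library 3 was the highest and all 5 banded libraries were above all sham libraries, as for ENSFCAG00000033858. The choice by highest r favours such a shared pattern. Without the 2 libraries in which ENSFCAG00000033858 lay farthest from its median, banded libraries 3 and 4 of 4 months, r was 0.851. It stayed between 0.892 and 0.938 with any 1 library left out, and the gene ranked between 1 and 3. After group means were subtracted r was 0.642, with the widest residuals of both genes in the banded libraries of 4 months. In skeletal muscle the same pair had r = -0.243.

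ENSFCAG00000010820 was next, with r = 0.855 and rho = 0.823 in left ventricle. It stood at 108.0, 199.8, 164.0, 308.5 and 147.3 CPM in banded libraries of 4 months, against 116.2, 87.7, 105.2, 100.2 and 87.5 CPM in sham libraries of 4 months. Its highest library was banded library 4, and the groups overlapped. Without the 2 farthest libraries r was 0.835, after subtraction of group means it was 0.459, and in skeletal muscle it was -0.005.

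Differences between groups enter these values of r, so likeness was also measured on residuals, the log2 CPM of a library minus its group mean. Residuals of ENSFCAG00000033858 in left ventricle were widest in banded libraries of 4 months, from -0.546 to 0.641. In the other groups they lay within -0.332 to 0.259. The r of residuals there thus rests mainly on libraries that were also used to choose the gene. In left ventricle ENSFCAG00000012926 had the highest r of residuals, 0.850 (rho = 0.796), and r = 0.753 without the 2 farthest libraries, banded libraries 3 and 1 of 4 months. Its group means were close together, with 61.0 ± 6.85 CPM in banded and 61.8 ± 4.71 CPM in sham left ventricle at 4 months (SD, n = 5 each). The banded and sham means of this gene thus differed by less than the spread between libraries. ENSFCAG00000042251 followed with r = 0.846 and rho = 0.684, on only 0 to 13 reads per library, and r was 0.668 without the 2 farthest libraries. With 1 library left out its rank lay between 1 and 11.

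In skeletal muscle the 2 closest genes on levels had few reads. ENSFCAG00000019316 had r = 0.741 (rho = 0.728) on 8 to 39 reads per library, and r = 0.745 without the 2 farthest libraries, banded library 5 and sham library 4 of 4 months. ENSFCAG00000011316 had r = 0.729 (rho = 0.616) on 1 to 60 reads, r = 0.584 without those 2 libraries, and a rank between 1 and 32 with 1 library left out. ENSFCAG00000011316 was also second by residuals, with r = 0.747, and its r in left ventricle was 0.614 on levels and 0.438 on residuals. ENSFCAG00000042016 was first by residuals, with r = 0.766 and rho = 0.767. Its r was 0.728 without the 2 farthest libraries, banded library 5 of 4 months and banded library 5 of 1 month. With 1 library left out its rank lay between 1 and 13. It averaged 8.28 ± 1.32 CPM in banded and 8.69 ± 1.63 CPM in sham skeletal muscle at 4 months (SD, n = 5 each), which differed by less than the spread between libraries.

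**Figure D4:**
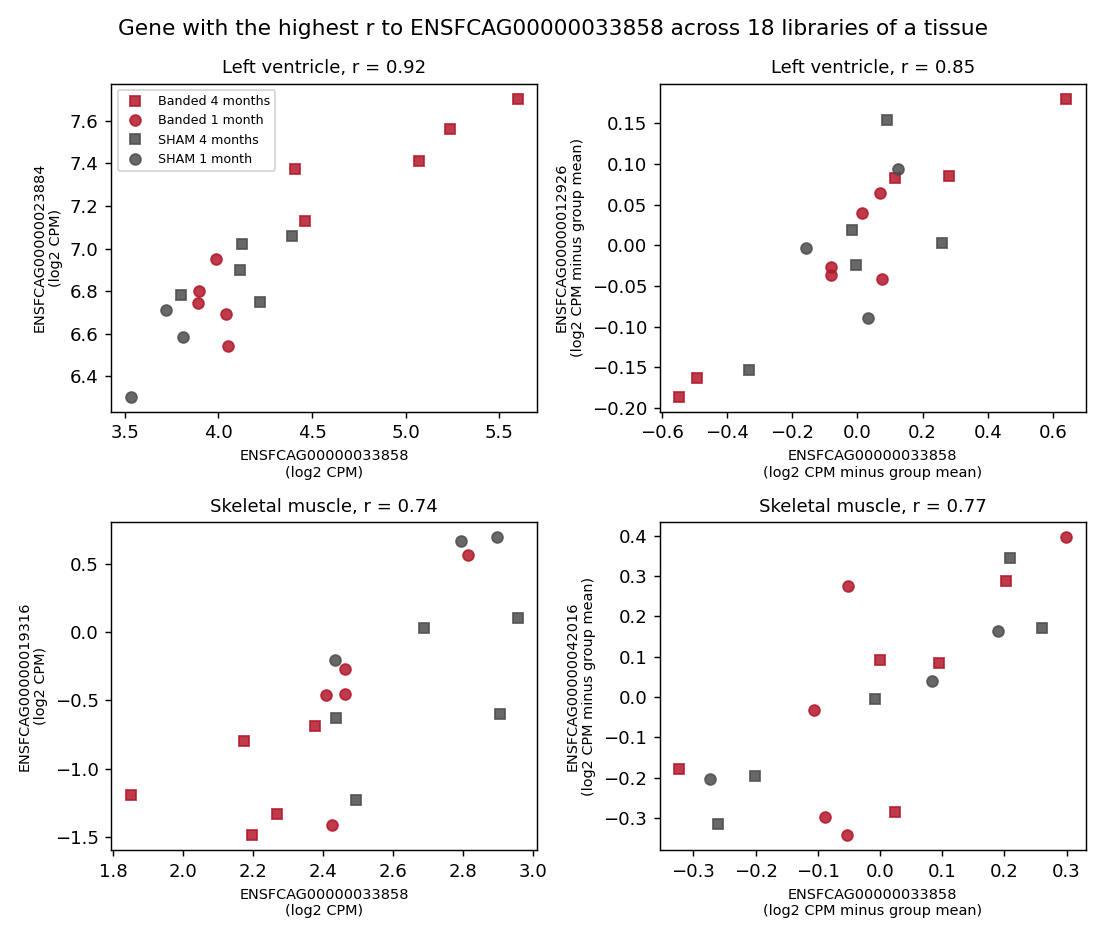
Gene with the highest r to ENSFCAG00000033858 in left ventricle (top) and skeletal muscle (bottom), on log2 CPM (left) and on log2 CPM minus the group mean (right). Each point is 1 of 18 libraries. In left ventricle the banded libraries of 4 months form the upper end of the r = 0.92 relation, while in skeletal muscle (r = 0.74 and 0.77) the points scatter more widely.

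Lists of the genes most like ENSFCAG00000033858 were compared between the tissues. Of the 100 genes with the highest r on levels in each tissue, 0 were shared, and of the 100 with the highest r on residuals 1 was shared, which is 1% of each list. The gene was chosen for opposite differences at 4 months, which favours lists on levels that differ between the tissues. Lists of 100 drawn at random from so many genes would also share few, so nothing is read from these counts. The left ventricle list on levels had a median r of -0.168 in skeletal muscle, over 84 genes tested there, beside 0.0133 for all 12989 genes compared in both. The choice of the gene favours that sign. On residuals the median of the left ventricle list in skeletal muscle was -0.00092, over 86 genes, beside -0.00047 for all genes. The skeletal muscle list had a median r of 0.0447 in left ventricle, over 94 genes, beside -0.0164 for all genes, and on residuals 0.0108, over 92 genes, beside -0.0043. In left ventricle 100 of the 100 genes like it on levels were higher in banded than in sham libraries at 4 months, a direction that the choice by r favours, beside 47.3% of all genes. In skeletal muscle it was 0 of the 100 genes like it on levels, again a direction that the choice favours, beside 52.8% of all genes. Of the 100 genes like it on residuals in left ventricle, a choice that leaves group means out, 49 were higher in banded left ventricle at 4 months. The residual list of skeletal muscle likewise had 50 of 100 genes higher in banded libraries at 4 months, beside 52.8% of all genes. Other comparisons of the residual lists lay farther from the share of all genes. In banded libraries, 66 of 100 were higher at 4 than at 1 month in left ventricle (49.6% of all genes) and 35 in skeletal muscle (49%). In sham libraries these were 62 (49%) and 41 (46.1%). At 1 month, 56 were higher in banded left ventricle (52.7%) and 67 in banded skeletal muscle (50.6%).

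The authors' deposited tables hold the gene in all 8 comparisons. For banding at 4 months the authors' deposited table gives a log2 fold change of 1.00 (SE 0.222) in left ventricle, and the authors' deposited table of skeletal muscle gives -0.53 (SE 0.158). DESeq2 on the deposited counts gave 0.90 (SE 0.202) in left ventricle and -0.54 (SE 0.159) in skeletal muscle. Mean normalized counts in the authors' deposited tables could be written as a weighted sum of the libraries in which sham library 1 of 1 month counts 2 times and sham library 1 of 4 months 0 times, in both tissues. With that library put in place of the other, DESeq2 gave 1.00 for the left ventricle and -0.52 for skeletal muscle. In left ventricle ENSFCAG00000033858 had 11.5 CPM in sham library 1 of 1 month and 17.4 CPM in sham library 1 of 4 months. For banding at 1 month the authors' deposited tables give 0.29 (SE 0.259, adjusted p 0.876) in left ventricle and -0.18 (SE 0.180) in skeletal muscle.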

How the data were processed

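The authors deposited raw counts per library for 26681 genes under Ensembl identifiers, with 5 summary lines left out here. The submitters' processing notes name HISAT2 2.1.0, HTSeq 0.11.2 and DESeq2 1.22.2, and the genome build and annotation are not given in the sources used here. Per the labels, the library kit was stranded and selected mRNA. The 8 deposited comparison tables hold, per the file headers, the mean normalized count as a signal, the log2 fold change with its SE, and the test statistic, a score. They also hold the p-value of each gene, raw and adjusted, as deposited.

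Counts were fitted with edgeR 4.0.16 (R 4.3.3) after filterByExpr and TMM scaling, with group means and the quasi-likelihood test. Each tissue was fitted with its 18 libraries, and contrasts between tissues with all 36. Tests were two-sided, with Benjamini-Hochberg adjustment over all genes tested and a threshold of 0.05. The SE given for edgeR is the absolute log2 fold change divided by the square root of the F statistic of its test. The 95% intervals are normal intervals from that SE and are not widened for the small number of libraries. A prior count of 2 entered log2 CPM. Alternatives were DESeq2 1.42.0, limma 3.58.1 voom, RLE scaling, no low-count filter, fits of only the compared groups, a block for the replicate number, and each library left out. Scaling by library totals, and sham library 1 of 1 month in place of sham library 1 of 4 months, were added after seeing the data. Scripts were tested on simulated counts. Over 66 pairs of libraries within groups, chi-square per degree of freedom was 30.2 or more, so no library repeats another of its group. Pairs across groups were not compared in this way.

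The gene and the comparisons were chosen with earlier results of these data known. The genes named beside it were, in each tissue, the 2 with the highest r on levels and the 2 with the highest r on residuals.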

Additional observations from a re-analysis of the deposited data

Results flagged for a closer look

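In skeletal muscle at 1 month, banded library 5 stood at 6.96 CPM of ENSFCAG00000033858, far from the other 4 banded libraries at 5.23 to 5.44 CPM. By the gap-to-range ratio it was the 1 group with so distant a library among 6 groups of this gene, and among 27 groups counting the genes named beside it. The ratio was 0.879, above the cutoff of 0.71, which chance passes in about 1 in 20 groups of 5 libraries. Without banded library 5 the banding effect in skeletal muscle at 1 month was -0.29 in place of -0.20 on the log2 scale and was still not called. Over all 8 libraries left out in turn it ran from -0.33 to -0.11.

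Banding differences at 4 months went in opposite directions in the tissues, with a log2 fold change of 0.89 in left ventricle against -0.53 in skeletal muscle, and banded and sham libraries did not overlap in either with TMM scaling. With library totals only they overlapped in left ventricle. The difference between the tissues was not tested, since the gene was chosen for it. Time differences in banded animals were also opposite, with 1.06 in left ventricle and -0.34 in skeletal muscle between 4 and 1 months. That difference was not tested either, because it rests on the same banded libraries of 4 months.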

How the results depend on the processing

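Of 237 recomputed values of the differences of ENSFCAG00000033858, 219 kept their direction and their side of the threshold or moved by less than 1 SD. The time difference in sham skeletal muscle, -0.01 on the log2 scale, changed sign with DESeq2 (0.030), RLE scaling (0.030), no low-count filter (0.053), only the groups compared (0.00080) and DESeq2 with the replaced sham library (0.019), and ran from -0.14 to 0.087 with 1 library left out. The tissue difference in sham animals at 1 month passed with library totals only (0.99), and under no other alternative. The permutation test of left ventricle at 1 month no longer passed with any 1 library left out, where the difference ran from 0.21 to 0.35 and fewer libraries raise the smallest adjusted p to 0.0571 or 0.0952. Adjusted p-values of the banding effect at 1 month ran from 0.547 to 0.954 in left ventricle and from 0.526 to 0.825 in skeletal muscle over the alternatives. Of all genes at 1 month, edgeR called 0 in each tissue and between them, and DESeq2 98 in left ventricle, 29 in skeletal muscle and 13 between them. With the block edgeR called 1 between them, and without the low-count filter it called 1 in skeletal muscle. With 3 sham libraries at 1 month, the banding effects of the gene could not be told from 0 by the intervals of the main fits.

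Library numbers were shared between groups. Residuals of same-numbered libraries correlated above 0.1 in 13 of 18 pairs across the tissues, with r from -0.024 to 0.327. Within left ventricle 2 of 8 pairs did so, and within skeletal muscle 3 of 8. Libraries with different numbers were not compared. Whether same-numbered libraries of the tissues come from the same cat was thus not settled, and the main fits treat all libraries as unpaired. With the replicate number as a block the banding effect at 1 month was 0.37 in left ventricle, -0.23 in skeletal muscle and 0.51 between them, and it changed no call of the gene.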
